A study of Homo sapiens with 6 samples.

Results

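The well-expressed ZNF genes of SEM cells are described here. These are the protein-coding genes named ZNF and a number, other than *ZNF143*, whose mean over 6 RNA-seq libraries was at least 10 CPM (the count of a gene scaled by the total of its library). The symbol rule found 513 genes among the 57820 of the deposited table, and 314 of them passed the level threshold, with 313 different symbols because *ZNF788* has 2 rows. The rule used the level over all 6 libraries together, so that the genes were selected on measured values but not on the difference between the groups. The other 199 genes lay under the threshold. Just inside it were *ZNF771* with 10.1 CPM and *ZNF362* with 10.2 CPM, and just outside it were *ZNF749* with 9.90 CPM and *ZNF215* with 9.83 CPM.

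ZNF genes encode proteins with C2H2 zinc fingers, short folds in which a zinc ion is held by a pair of cysteines and a pair of histidines. Fingers are repeated in tandem and read DNA one after another. In many of these proteins the fingers follow a KRAB domain, which recruits TRIM28 and, through it, the histone methyltransferase SETDB1, so that the bound DNA is packed into heterochromatin. KRAB zinc-finger proteins are known for silencing endogenous retroviruses and other mobile elements and for keeping imprinting marks. Many are encoded in clusters of related genes on chromosome 19, which arose by repeated duplication. A smaller group carries a SCAN domain, through which proteins pair with each other. CTCF is itself a C2H2 zinc-finger protein, but its symbol does not fall under the rule.

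The cell line SEM comes from a human acute lymphoblastic leukemia of the B lineage (B-ALL). In all cells the endogenous CTCF was fused to miniAID and mClover3, and OsTIR1(F74G) was expressed, so that 5-Ph-IAA, an auxin analog, led to its degradation. The 3 CTCF-WT libraries came from CTCF-AID2/WT cells, in which HA-tagged wild-type CTCF can be induced by doxycycline, and the 3 CTCF-dRBR libraries from CTCF-AID2/dRBR cells, in which the induced HA-CTCF lacks the RNA-binding region (RBR). Both groups were exposed to 5-Ph-IAA over 24 h, the last 18 h of it together with 1 µg/mL doxycycline. The genotype label of the CTCF-WT libraries names the tagged endogenous CTCF alone, and their titles gave the group. The induced gene was driven by a TRE3G promoter. Whether each line was a single clone, and whether the replicates were separate cultures, is not given in the sources used here, and p-values then measure only the spread between these libraries.

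Library totals were 51732177 to 53166735 counts in CTCF-WT and 30034505 to 50457168 in CTCF-dRBR, the lowest being CTCF-dRBR replicate 1. Of the 9 markers of B-lineage leukemia, 8 reached 1 CPM, with summed levels of 1144 to 1201 CPM in CTCF-WT and 920.3 to 1252 CPM in CTCF-dRBR, and *DNTT* did not. None of the 4 T cell and 3 erythroid markers and 2 of the 5 myeloid markers reached 1 CPM, and *CD3D*, *ALAS2* and *ELANE* were at 0 in all libraries. The summed myeloid markers lay between 7.72 and 13.1 CPM, the T cell markers between 0.0376 and 0.599 CPM and the erythroid markers between 0 and 0.0999 CPM. *CTCF* had 209.9, 211 and 249 CPM in CTCF-WT and 273, 264 and 252 CPM in CTCF-dRBR (log2 fold change 0.24, SE 0.10, adjusted p = 0.202). Endogenous and induced transcripts were not separated in this value. CTCF-dRBR replicate 1 stood apart from the other libraries: its departure in log2 CPM from the average library followed transcript GC content with a Spearman's rho of −0.784 over 13654 genes, against 0.713, 0.68 and 0.338 in CTCF-WT replicates 1, 2 and 3 and −0.423 and 0.51 in CTCF-dRBR replicates 2 and 3. Values without this library are given beside some of those that it moved. Genes given without such a value may have been moved by it too.

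Of the 314 genes, 310 had a coding sequence in the annotation used. Their proteins held a median of 11.0 zinc fingers, with at most 36.0 in *ZNF142*. A match to the KRAB domain was found in 213 of them, a match to the SCAN domain in 12, and both in 8. *ZNF91*, which is known to silence SVA retrotransposons, held 32 fingers, the most among the genes with a KRAB match. The stretch that joins fingers is shown because it was the sequence of 12 bases held by the most coding sequences of these genes.

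linker: tggagagaaacc

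It occurred in 150 of 310 ZNF coding sequences (48.4%) and in 59 of 11126 other protein-coding genes tested (0.53%). There were 616 copies, and 579 of them (94%) started within 6 codons after the last histidine of a finger. *ZNF845* held 18 copies, *ZNF91* 15 and *ZNF714* 7, while *ZNF202* and *ZNF445* held 0. It was found in 134 of 213 genes with a KRAB match and in 16 of 97 without. Because such sequence recurs between genes, the stretches of 100 bases in each transcript that also occur in a transcript of another gene were counted. For 203 of 311 transcripts there were none, for 34 they made up at least 10% of the transcript and for 10 at least 50%. The share was 0% for *ZNF91*, *ZNF714*, *ZNF823*, *ZNF608* and *ZNF202*, 0.291% for *ZNF445*, 28.2% for *ZNF799* and 48.3% for *ZNF263*. Among other genes named in the text the share was 41.2% for *ZNF395*, 37.4% for *ZNF362* and 14.7% for *ZNF587*. These transcripts came from a later annotation than the one used for the counts, and some of the other genes may be absent from the earlier one. Where both genes were annotated, reads from shared stretches could have been assigned to either. The values of genes with a large share may thus be less certain.

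The promoters of 5 genes are shown because they stand for groups that the results below separate. *ZNF91* and *ZNF714* lie in the clusters at 19p12, *ZNF823* lies in a cluster closer to the end of the short arm of chromosome 19, *ZNF587* lies in the last cluster of the long arm, and *ZNF202*, which had the smallest p, lies on chromosome 11. Each sequence runs from 250 bases before to 50 bases after the start site (RefSeq, GRCh38.p14), and capitals mark CCAATCAG, a form of the CCAAT box to which the factor NF-Y binds.

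ZNF91: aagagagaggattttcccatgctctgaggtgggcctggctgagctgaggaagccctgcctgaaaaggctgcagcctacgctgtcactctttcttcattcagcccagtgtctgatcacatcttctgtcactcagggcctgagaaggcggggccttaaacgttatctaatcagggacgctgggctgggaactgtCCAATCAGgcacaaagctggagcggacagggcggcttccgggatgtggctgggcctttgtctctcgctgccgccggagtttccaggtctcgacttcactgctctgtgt
ZNF714: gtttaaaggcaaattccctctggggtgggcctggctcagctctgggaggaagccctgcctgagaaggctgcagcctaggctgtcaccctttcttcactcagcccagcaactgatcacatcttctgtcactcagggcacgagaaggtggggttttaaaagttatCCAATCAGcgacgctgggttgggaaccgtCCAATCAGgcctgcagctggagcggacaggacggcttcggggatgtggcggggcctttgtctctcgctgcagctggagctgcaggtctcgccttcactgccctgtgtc
ZNF823: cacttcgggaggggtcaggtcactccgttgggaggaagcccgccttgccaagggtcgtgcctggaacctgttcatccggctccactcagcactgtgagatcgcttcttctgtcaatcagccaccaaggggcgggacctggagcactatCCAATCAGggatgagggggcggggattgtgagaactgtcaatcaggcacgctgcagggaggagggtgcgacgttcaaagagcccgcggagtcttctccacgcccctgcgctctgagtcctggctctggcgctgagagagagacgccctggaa
ZNF587: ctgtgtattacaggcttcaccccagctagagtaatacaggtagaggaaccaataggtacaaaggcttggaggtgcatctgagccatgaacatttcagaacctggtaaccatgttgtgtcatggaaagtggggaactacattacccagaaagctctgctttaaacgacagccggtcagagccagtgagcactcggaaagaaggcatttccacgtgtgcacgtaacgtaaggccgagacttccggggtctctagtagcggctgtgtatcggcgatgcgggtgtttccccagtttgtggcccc
ZNF202: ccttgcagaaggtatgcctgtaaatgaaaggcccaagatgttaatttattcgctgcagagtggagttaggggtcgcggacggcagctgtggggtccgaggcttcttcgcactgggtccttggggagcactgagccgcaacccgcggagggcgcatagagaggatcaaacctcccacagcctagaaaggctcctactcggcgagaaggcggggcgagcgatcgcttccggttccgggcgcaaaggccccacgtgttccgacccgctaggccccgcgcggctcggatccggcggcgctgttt

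They are at chr19:23395422-23395721 (minus strand), chr19:21081953-21082252 (plus), chr19:11738897-11739196 (minus), chr19:57849609-57849908 (plus) and chr11:123741611-123741910 (minus). Of the 314 genes, 274 symbols had a promoter, taken at the first start site listed. CCAATCAG, searched on both strands, was present in 58 of them (21.2%), against 4.16% of all 27305 promoters of this length. It was present in 20 of the 20 promoters matched from the 19p12 clusters and in 0 of 28 from the last cluster of chromosome 19. The letters of this motif were chosen after the sequences had been seen, and promoters of duplicated genes are not independent. The ETS site CCGGAAG was present in 116 of 274 promoters (42.3%), against 10.7% of all promoters and 19.8% of those of other protein-coding genes tested. A core of the CTCF motif with 12 positions, of which some accept any base, was matched in 42 promoters (15.3%), against 14.8% in the other protein-coding genes tested and 10.6% of all promoters. It was matched in 1 of the 20 promoters of the 19p12 clusters.

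Levels were compared between genes in TPM, which are divided by gene length, rescaled to the protein-coding genes of each library. Over all protein-coding genes tested the median was 21.9 TPM. Over those with a mean of at least 10 CPM, the threshold of the ZNF genes, it was 34.5 TPM. The 314 ZNF genes had a median of 18.1 TPM, between 3.42 and 342. The highest was *ZNF207*, which encodes a microtubule-binding protein of the mitotic spindle, with 287, 304 and 344 TPM in CTCF-WT and 355, 423 and 342 TPM in CTCF-dRBR, replicates 1, 2 and 3 in this order here and below. *ZNF91* followed with a mean of 192 TPM ± 78.4 (SD, n = 6), *ZNF638* with 162 ± 51.5, *ZNF146* with 158 ± 28.6 and *ZNF121* with 137 ± 27.5. Each of these last 4 differed from its neighbour by less than this spread, and the place of *ZNF91* before *ZNF146* rested on the CTCF-dRBR libraries. In CTCF-WT, *ZNF91* had 107, 112 and 166 TPM and *ZNF146* had 131, 138 and 155 TPM. *ZNF638* encodes an RNA-binding nuclear protein and *ZNF146* a protein that consists almost only of fingers. Genes with a KRAB match had a median of 17.1 TPM and those without a median of 24.1 TPM.

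The comparison of CTCF-dRBR with CTCF-WT asks whether expression differs when CTCF lacks its RNA-binding region. More ZNF genes were higher than lower in CTCF-dRBR, but not a single one passed the test across all genes. Of the 314 genes, 223 had a positive and 91 a negative log2 fold change, counted as higher and lower here and below. Of all 14044 genes tested, 49.4% were higher. The median log2 fold change of the ZNF genes was 0.20, against −0.0076 over all genes tested. The smallest adjusted p was 0.10 (limma-voom, two-sided), and the number past 0.05 was 0 of 314, against 0% of all genes. At an unadjusted p under 0.05, 56 of the 314 ZNF genes were higher, against 12.6% of all genes, and 7 were lower, against 12.8% of all genes. In 119 ZNF genes the lowest CTCF-dRBR library exceeded the highest CTCF-WT library (37.9%, against 20% of all genes), and in 24 the highest CTCF-dRBR library was under the lowest CTCF-WT library (7.64%, against 17.5% of all genes). DESeq2 called 16 of the 314 ZNF genes higher, against 5.38% of all genes, and 3 lower, against 6.14% of all genes. Neither was a larger share than over all genes.

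The libraries did not contribute equally. The median deviation of the ZNF genes from their own mean over the 6 libraries was −0.15, −0.12 and −0.039 in CTCF-WT replicates 1, 2 and 3, and 0.35, 0.038 and −0.027 in CTCF-dRBR replicates 1, 2 and 3, on the log2 CPM scale. CTCF-dRBR replicate 3 thus lay just above the highest CTCF-WT library, replicate 3, and CTCF-dRBR replicate 1 lay far above all others. The latter held the highest value of 219 of the 314 genes, and CTCF-WT replicate 1 the lowest value of 145. ZNF genes took 1.49%, 1.54% and 1.64% of the protein-coding counts in CTCF-WT and 2.13%, 1.80% and 1.69% in CTCF-dRBR. Without CTCF-dRBR replicate 1 the median log2 fold change was 0.11, 210 genes were higher and 1 gene, *ZNF202*, passed the test (adjusted p = 0.0428, limma-voom). In bulk RNA, fewer cells and less RNA per cell cannot be told apart.

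**Figure D1:**
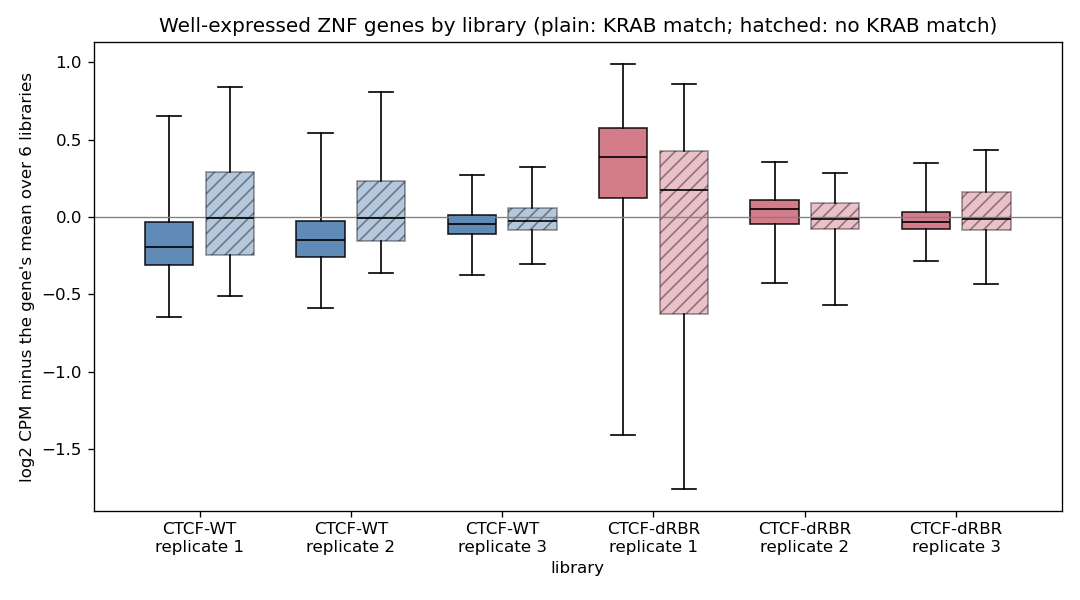
Deviation of log2 CPM from each gene's mean over the 6 libraries, in CTCF-WT (blue) and CTCF-dRBR (red), for ZNF genes with a KRAB match (plain, n = 213) and without (hatched, n = 97). Boxes show the quartiles with the median as a line, and whiskers the full range. Among genes with a KRAB match the medians were −0.20, −0.15 and −0.043 in CTCF-WT and 0.39, 0.054 and −0.031 in CTCF-dRBR.

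Among the genes with the smallest p, *ZNF91* (chr19:23487793-23578273, minus strand, GRCh37) had the largest fold change. CTCF-WT had 267, 273 and 374 CPM, and CTCF-dRBR had 804, 503 and 433 CPM. All CTCF-dRBR libraries were higher, with a log2 fold change of 0.89 (SE 0.26, adjusted p = 0.144). Without CTCF-dRBR replicate 1 it was 0.63 (adjusted p = 0.0792).

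*ZNF714*, a gene of the neighbouring cluster at chr19:21264965-21308073, had 114, 129 and 142 CPM in CTCF-WT and 189, 176 and 165 CPM in CTCF-dRBR. The groups did not overlap, and the log2 fold change was 0.46 (SE 0.11, adjusted p = 0.129). *ZNF823* at chr19:11832080-11849824 had 23.8, 24 and 26.0 CPM in CTCF-WT and 40.1, 34.5 and 31.5 CPM in CTCF-dRBR, with a log2 fold change of 0.50 (SE 0.13, adjusted p = 0.133). *ZNF506* had 47.3, 51.3 and 57.0 CPM in CTCF-WT and 86.0, 70.1 and 66.0 CPM in CTCF-dRBR. In each of these 3 genes CTCF-WT replicate 1 was the lowest and CTCF-dRBR replicate 1 the highest library.

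*ZNF799*, a gene of the same cluster as *ZNF823*, had 11.2, 11.8 and 12.7 CPM against 19.6, 17.9 and 15.2 CPM, and *ZNF772*, in the last cluster of chromosome 19, had 9.52, 10.3 and 10.2 CPM against 14.1, 12.9 and 13.1 CPM. The other 2 genes with a small p lay outside chromosome 19. They had no KRAB match, and neither had *ZNF714*. *ZNF704* on chromosome 8 had 82.4, 79.1 and 73.7 CPM in CTCF-WT and 103, 101 and 95.8 CPM in CTCF-dRBR. *ZNF608* on chromosome 5 had 24.1, 24.7 and 26.7 CPM in CTCF-WT and 39.1, 31.8 and 32.8 CPM in CTCF-dRBR. Of the 8 genes on the higher side none overlapped between the groups in CPM, and the adjusted p from limma-voom lay between 0.129 and 0.149. Over all genes 20% had no overlap on the higher side. The 8 were chosen by their p in the same libraries, so the lack of overlap and the DESeq2 calls are no separate support. In TPM the groups of *ZNF704* overlapped. All 8 were called by DESeq2, with adjusted p between 0.0128 and 0.0304.

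On the lower side *ZNF202* (chr11:123594622-123612383, minus strand, GRCh37), a SCAN and KRAB gene whose protein is known as a repressor of lipid metabolism genes, had the smallest p of all ZNF genes. It had 30.7, 29.2 and 27.1 CPM in CTCF-WT and 17.4, 17.7 and 20.2 CPM in CTCF-dRBR. The lowest CTCF-WT library was well above the highest CTCF-dRBR library, and the log2 fold change was −0.65 (SE 0.12, adjusted p = 0.10 from limma-voom and 1.84e-05 from DESeq2). The spread within each group was 1.81 and 1.51 CPM (SD, n = 3). Leaving out CTCF-dRBR replicate 1 gave −0.62.

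*ZNF445*, a SCAN and KRAB gene whose protein maintains imprinted methylation, had 71.5, 69.4 and 56.9 CPM in CTCF-WT and 51.2, 46.5 and 50.1 CPM in CTCF-dRBR (log2 fold change −0.42, SE 0.12, adjusted p = 0.148). *ZNF576*, which overlaps *SRRM5* on the same strand, had 17.6, 16.5 and 13 CPM in CTCF-WT and 11.1, 8.41 and 10.6 CPM in CTCF-dRBR (log2 fold change −0.65, SE 0.18, adjusted p = 0.142). DESeq2 also called both, with adjusted p of 0.0382 and 0.0226. *ZNF239*, *ZNF275*, *ZNF384*, *ZNF786* and *ZNF263* followed with log2 fold changes between −0.43 and −0.31. In CPM all 8 genes on the lower side had groups without overlap, which was so for 17.5% of all genes. They too were chosen by their p in the same libraries. In TPM the groups of *ZNF239* and *ZNF263* overlapped. *ZNF384*, a partner gene of fusions in B-ALL, had 37.6, 37.7 and 34.3 CPM in CTCF-WT and 24.3, 30.5 and 31.3 CPM in CTCF-dRBR.

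**Figure D2:**
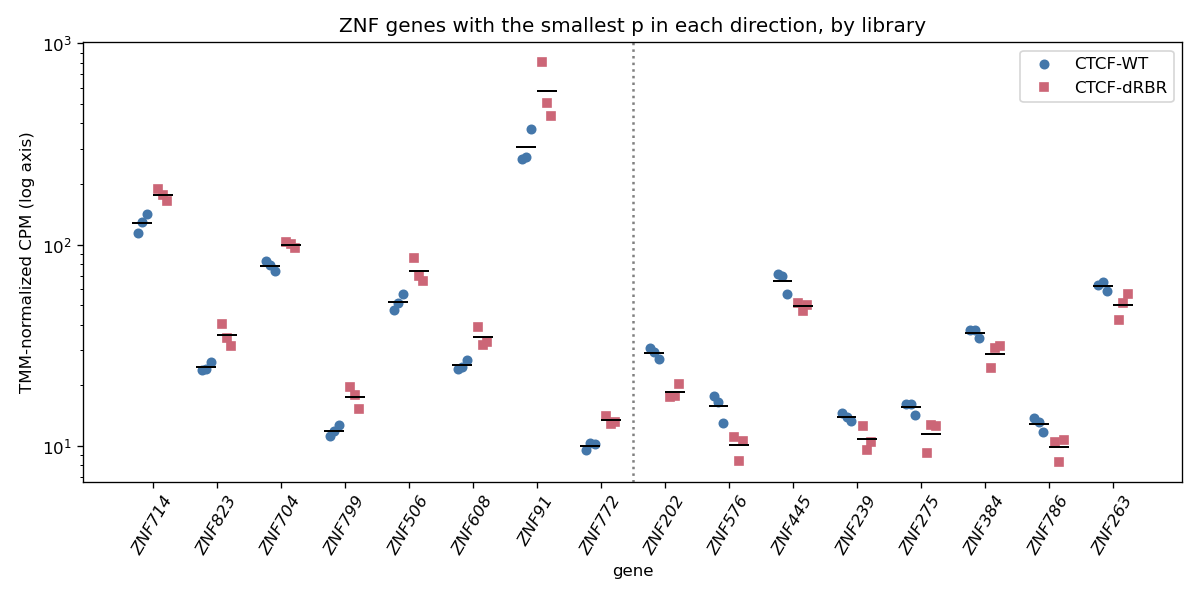
TMM-normalized CPM on a log axis of the 8 ZNF genes with the smallest p on the higher side (left of the dotted line) and of the 8 on the lower side (right), by library (points) with group means (lines). *ZNF202* lies between 17.4 and 20.2 CPM in CTCF-dRBR and between 27.1 and 30.7 CPM in CTCF-WT.

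The counts differed by the domains of the proteins, which the rule did not use. Of the 213 genes with a KRAB match 168 were higher, with a median log2 fold change of 0.25, and of the 97 without 52 were higher, with a median of 0.043. The medians without CTCF-dRBR replicate 1 were 0.14 (160 of 213 higher) and −0.01 (47 of 97 higher), so that the direction of the latter turned. No overlap on the higher side was found in 94 genes with a KRAB match (44.1%) and 24 without (24.7%), against 20% of all genes. The difference between these sets was not tested. The 12 SCAN genes went the other way, with 4 higher and 8 lower and a median of −0.10. Among them 5 were lower without overlap (*ZNF202*, *ZNF445*, *ZNF263*, *ZNF18* and *ZNF75D*, the last 2 named after their values were seen) and 0 were higher without overlap, against 17.5% and 20% of all genes. The SCAN median was −0.17, with 3 of 12 higher, when CTCF-dRBR replicate 1 was left out. Transcripts of the 3 sets differed in GC content, with medians of 41.9%, 44.6% and 48.0%.

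GC content went with the fold change throughout. Over the 311 ZNF genes with an annotated transcript, Spearman's rho between GC content and log2 fold change was −0.75, and over 11518 protein-coding genes it was −0.72. These correlations are across genes, which share their 6 libraries, and carry no p. Without CTCF-dRBR replicate 1 they were −0.64 and −0.51. ZNF transcripts had a median GC content of 42.2%, against 47.5% in protein-coding genes tested. Transcript length had a rho of 0.049 and the number of fingers a rho of 0.18 (n = 310).

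Within ranges of GC content the ZNF genes were set beside the other protein-coding genes. Under 38%, 49 of 50 ZNF genes were higher, with a median of 0.45, and 953 of 1040 other genes, with a median of 0.33. Between 38% and 42%, 92 of 100 ZNF genes were higher, with a median of 0.31, against 0.24 in the other genes. Between 42% and 46% the medians were 0.15 and 0.13, between 46% and 50% they were −0.0081 and −0.022, and from 50% they were −0.41 and −0.46. In that last range 4 of 52 ZNF genes and 690 of 4895 other genes were higher. The ZNF medians thus lay above those of the other genes in each range. When CTCF-dRBR replicate 1 was left out, the medians were 0.26 in ZNF genes and 0.17 in the other genes under 38%, 0.16 and 0.13 between 38% and 42%, 0.076 and 0.064 between 42% and 46%, and −0.19 and −0.22 from 50%. Between 46% and 50% the ZNF median was then the lower one, −0.053 against −0.024. These differences were not tested.

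**Figure D3:**
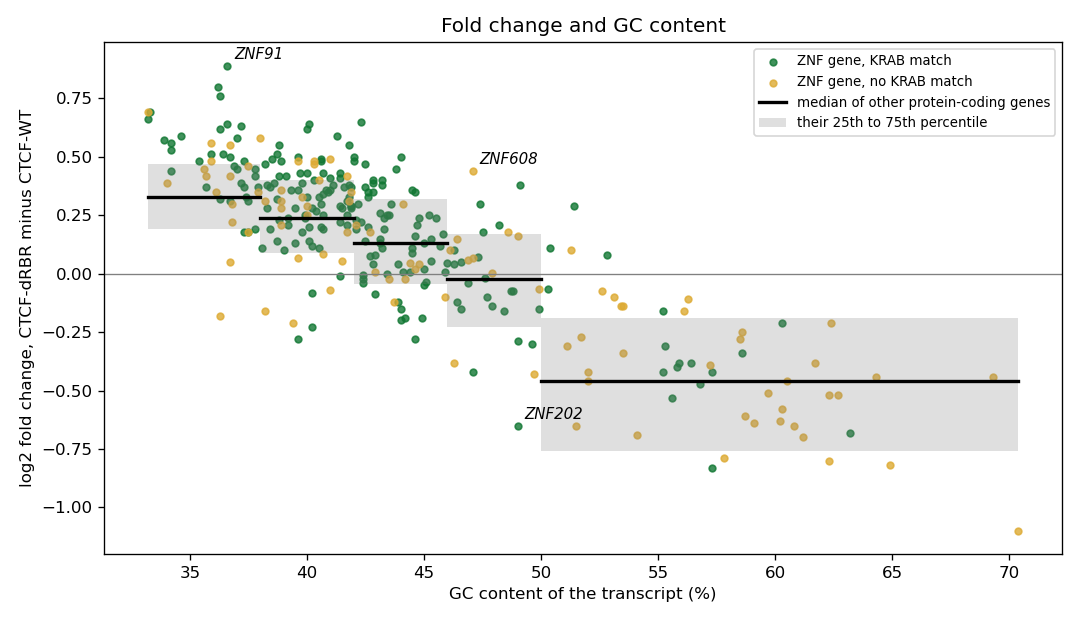
Log2 fold change, CTCF-dRBR minus CTCF-WT, against transcript GC content for ZNF genes with a KRAB match (green) and without (yellow). Black lines and grey bands give the median and quartiles of the other protein-coding genes in each range, and the ZNF genes fall from a median of 0.45 under 38% to −0.41 from 50%.

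When the GC trend of each library was removed before the test, the median log2 fold change of the ZNF genes was 0.034, against −0.011 over all 13654 genes. Of the ZNF genes 178 of 311 were higher, against 6610 of all 13654 genes. In the protein-coding genes with a mean of at least 10 CPM the median was −0.05, and 3594 of 8604 were higher. Groups without overlap were found in 72 ZNF genes on the higher side (23.2%, against 18% of all genes) and 40 on the lower side (12.9%, against 21.9% of all genes). In the protein-coding genes with a mean of at least 10 CPM the shares were 15.8% and 27.9%. At an adjusted p under 0.05 (limma-trend), 5 of the 311 ZNF genes were higher, against 4.16% of all genes, and 11 were lower, against 5.97% of all genes. Both were smaller shares than over all genes. The 5 were *ZNF91* with a log2 fold change of 0.54, *ZNF792* with 0.42, *ZNF608* with 0.40, *ZNF555* with 0.35 and *ZNF823* with 0.28. *ZNF792* and *ZNF555* were named after their values were seen. The rest of the 8 genes with the smallest p on the higher side were not called in this fit. *ZNF799* had 0.32, *ZNF772* 0.16, *ZNF506* 0.15, *ZNF714* 0.13 and *ZNF704* 0.11, with adjusted p between 0.0523 and 0.531 (limma-trend). *ZNF792* had 29.1, 31.1 and 30.5 CPM in CTCF-WT and 35.0, 37.3 and 38.4 CPM in CTCF-dRBR.

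Of the 11 on the lower side *ZNF202* had the largest fold change, −0.63 (adjusted p = 0.0168), followed by *ZNF770* with −0.54 and *ZNF507* with −0.49, which were named after their values were seen. *ZNF445* had −0.47 and *ZNF239* −0.46. *ZNF770* had 144, 147 and 148 CPM in CTCF-WT and 185, 116 and 102 CPM in CTCF-dRBR, so that before the removal CTCF-dRBR replicate 1 was its highest library and the other 2 its lowest. Genes called both here and by DESeq2 were *ZNF91*, *ZNF792*, *ZNF608*, *ZNF555*, *ZNF823*, *ZNF202* and *ZNF445*, 7 in all. Both fits used the same libraries, and the share of all genes called by both was not counted. The number of calls changed with single libraries. Leaving out replicate 1 or 2 of CTCF-WT, or replicate 2 of CTCF-dRBR, gave 0 calls, without CTCF-dRBR replicate 3 there was 1, without CTCF-WT replicate 3 there were 7, and without CTCF-dRBR replicate 1 there were 49, 22 higher and 27 lower. *ZNF202* was the 1 gene called without CTCF-dRBR replicate 3.

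With the GC trend removed, the 12 SCAN genes had a median of −0.17, with 7 lower and 6 lower without overlap (50%, against 21.9% of all genes). The median of the genes with a KRAB match was 0.048 and of those without 0.0088. *ZNF786* and *ZNF263*, whose GC content was 55.8% and 55.3%, had 0.0088 and 0.04 in place of −0.40 and −0.31. *ZNF384*, with 53.5%, had −0.10 in place of −0.34, while *ZNF275* and *ZNF576* had −0.39 and −0.50 in place of −0.43 and −0.65.

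**Figure D4:**
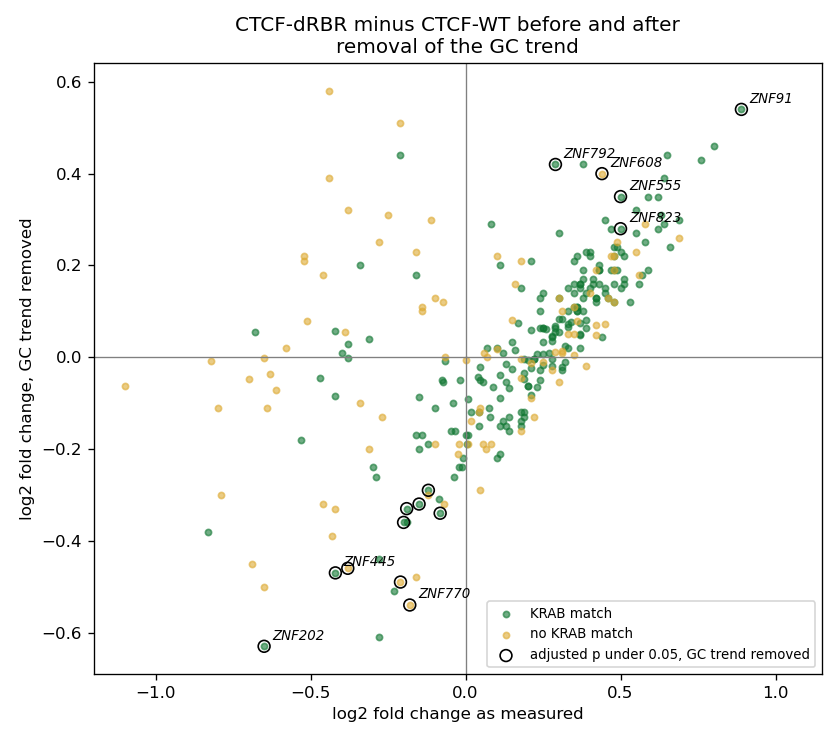
Log2 fold change, CTCF-dRBR minus CTCF-WT, of each ZNF gene as measured (horizontal axis) and with the GC trend removed (vertical axis). Circles mark the 16 genes past an adjusted p of 0.05 with the trend removed, of which *ZNF91* stands at 0.54 and *ZNF202* at −0.63.

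On chromosome 19 there were 152 of the 314 genes, of which 122 were higher, with a median log2 fold change of 0.25, against 98 of 159 on other chromosomes, with a median of 0.10. The medians without CTCF-dRBR replicate 1 were 0.14 and 0.067. After removal of the GC trend they were 0.033 (87 of 152 higher) and 0.035 (91 of 159 higher), so that the difference was no longer seen. Neighbours less than 1 Mb apart were joined into groups. The pair of groups called 19p12 here ran from *ZNF101* to *ZNF43* (chr19:19779605-22034927, GRCh37) and from *ZNF730* to *ZNF254* (chr19:23258012-24312770). It was set by this distance, and whether each gene lies in that band was not checked. All of its 24 genes were higher. Their fold changes ran from 0.018 in *ZNF101* to 0.89 in *ZNF91*, with a median of 0.51, and 20 of them did not overlap between the groups, against 20% of all genes. Without CTCF-dRBR replicate 1 all of the 24 were still higher, with a median of 0.34. With the GC trend removed 23 were higher, with a median of 0.16, and 1, *ZNF91*, passed the test. The GC content of these genes had a median of 37%, the lowest range of those above. Paralogs of a cluster share sequence and position and are not independent of each other.

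The last group of chromosome 19, from *ZNF787* to *ZNF324* (chr19:56598732-58986803), differed from this in its counts. Of its 30 genes, 27 with a KRAB match, 14 were higher, with a median of −0.0036, and 6 were higher and 4 lower without overlap, against 20% and 17.5% of all genes. Its genes had a median GC content of 44.6% and a median level of 12.2 TPM, against 42 TPM in the genes at 19p12. With the GC trend removed the median was −0.085 and 10 of 30 were higher. Between these lay the group from *ZNF175* to *ZNF331*, with 31 of 32 genes higher and a median of 0.32, which became 0.09 when the GC trend was removed. The difference between groups of neighbours was not tested.

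**Figure D5:**
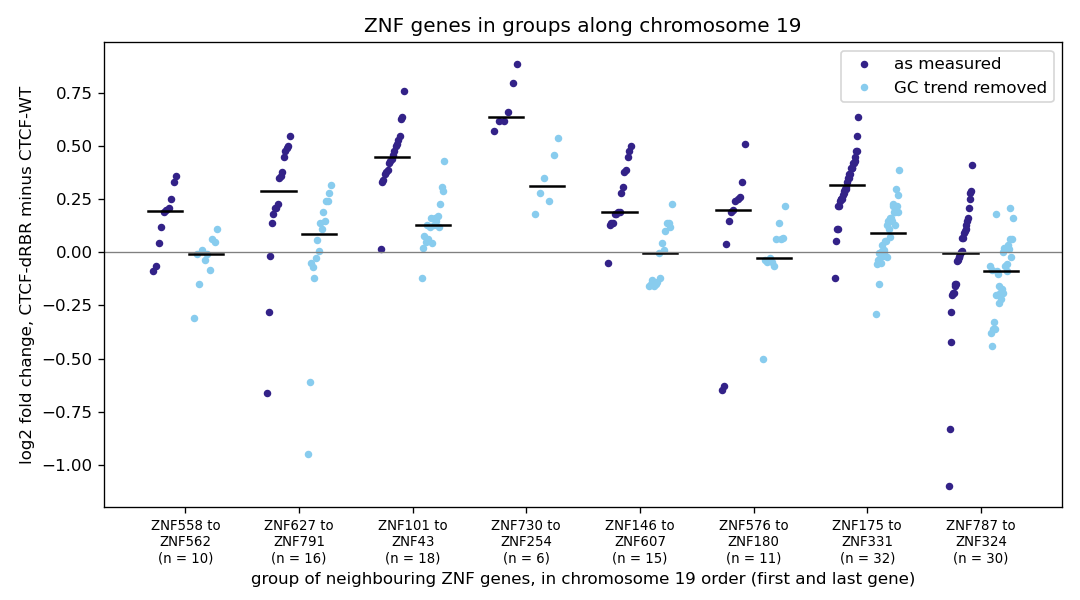
Log2 fold change, CTCF-dRBR minus CTCF-WT, of each ZNF gene (points) in groups of at least 5 neighbours in the order of chromosome 19, as measured (dark) and with the GC trend removed (light), with medians as lines. The group from *ZNF730* to *ZNF254* has the highest median, 0.64 as measured and 0.31 with the trend removed.

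ZNF genes known for silencing retroelements or for imprinting had 14 of 18 listed members above the threshold. Of these 0 passed the test, 11 were higher, with a median of 0.32, and 8 were higher (57.1%, against 20% of all genes) and 2 lower (14.3%, against 17.5% of all genes) without overlap. The median was 0.17 (11 of 14 higher) without CTCF-dRBR replicate 1, and 0.073 (8 of 14 higher) after removal of the GC trend. Besides *ZNF91* and *ZNF445*, *ZNF93*, which silences LINE-1 elements, had a log2 fold change of 0.38 (SE 0.21, adjusted p = 0.264), and of 0.17 without CTCF-dRBR replicate 1. *ZNF587* and *ZNF331* had −0.19 and −0.12, and both passed the test with the GC trend removed (adjusted p = 0.0489 and 0.0424). The median GC content of the list was 40.7%.

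ZNF genes linked to RNA had 11 of 12 members above the threshold, 7 of them higher, with a median of 0.048 and 0 past the test. The median turned to −0.065 (4 of 11 higher) without CTCF-dRBR replicate 1 and to −0.088 (3 of 11 higher) with the GC trend removed. Their smallest p was that of *ZNF638*, with 226, 249.7 and 281 CPM in CTCF-WT and 458, 322 and 292 CPM in CTCF-dRBR (log2 fold change 0.48, SE 0.19, adjusted p = 0.186), and 0.28 without CTCF-dRBR replicate 1. *ZNF598*, a ubiquitin ligase that senses collided ribosomes, had −0.82 (SE 0.41, adjusted p = 0.231), −0.39 without CTCF-dRBR replicate 1 and −0.0082 after removal of the GC trend. *ZNF207* had 0.22 (SE 0.10, adjusted p = 0.214), and −0.13 with the GC trend removed. *ZNF346*, which binds double-stranded RNA, had −0.27 (SE 0.13, adjusted p = 0.233).

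ZNF genes of chromatin complexes had 13 of 18 members above the threshold, 7 higher and 6 lower, with a median of 0.043 and 0 past the test. The median was 0.066 (7 of 13 higher) without CTCF-dRBR replicate 1 and turned to −0.048 (5 of 13 higher) with the GC trend removed. *ZNF644*, a partner of the histone methyltransferases G9a and GLP, had the smallest p and the highest level of the list, with 223, 240.5 and 272 CPM in CTCF-WT and 493, 333 and 284 CPM in CTCF-dRBR (log2 fold change 0.56, SE 0.21, adjusted p = 0.183), and 0.33 without CTCF-dRBR replicate 1. *ZNF687* and *ZNF592*, parts of one complex, had −0.64 and −0.42 (adjusted p = 0.290 and 0.420), with groups that overlapped, and −0.23 and −0.033 without CTCF-dRBR replicate 1. Of the ZNF genes of blood lineages 5 of 8 were above the threshold, with 1 higher (*ZNF608*) and 4 lower and a median of −0.16, which turned to 0.014 (3 of 5 higher) without CTCF-dRBR replicate 1 and to 0.23 (4 of 5 higher) with the GC trend removed. *ZNF395*, the highest of them, had 71.4, 73.2 and 61.9 CPM in CTCF-WT and 44.4, 67.8 and 76.8 CPM in CTCF-dRBR, so that the groups overlapped, and its log2 fold change of −0.14 was 0.10 with the GC trend removed.

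All 18 genes of the KRAB silencing machinery were tested, and 0 passed. There were 8 higher and 10 lower, with a median of −0.0094. There were 7 higher (median −0.042) without CTCF-dRBR replicate 1. After removal of the GC trend there were 4 higher and 14 lower (median −0.066). *TRIM28*, the cofactor bound by the KRAB domain, had 389, 391 and 361 CPM in CTCF-WT and 97.0, 252 and 329.9 CPM in CTCF-dRBR. In CPM its CTCF-dRBR libraries were all lower but spread widely, with the lowest value in CTCF-dRBR replicate 1 (log2 fold change −0.90, SE 0.42, adjusted p = 0.220). Without that library the log2 fold change was −0.40. In TPM the groups overlapped, with 691, 735 and 905 in CTCF-WT and 290.1, 774 and 817 in CTCF-dRBR. Its transcript had a GC content of 64.2%, and with the GC trend removed the log2 fold change was −0.066. *SETDB1*, the methyltransferase, had 79.2, 80.8 and 81.7 CPM against 88.7, 77.3 and 86.4 CPM (log2 fold change 0.057, SE 0.094, adjusted p = 0.676).

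On the lower side, *MORC2*, an ATPase that acts with the HUSH silencing complex, had 26.2, 24.7 and 24.5 CPM in CTCF-WT and 18.7, 19.5 and 20.7 CPM in CTCF-dRBR (log2 fold change −0.35, SE 0.11, adjusted p = 0.152 from limma-voom and 0.0136 from DESeq2). On the higher side, *ATF7IP*, a partner of SETDB1, had 119, 125 and 132 CPM against 219, 159 and 143 CPM (log2 fold change 0.44, adjusted p = 0.185), and *SMARCAD1*, a chromatin remodeler, had 134, 154 and 164 CPM against 249.8, 183 and 152 CPM (log2 fold change 0.34, adjusted p = 0.271). These were 0.26 and 0.15 when CTCF-dRBR replicate 1 was left out. With the GC trend removed *MORC2*, *ATF7IP* and *SMARCAD1* had log2 fold changes of −0.19, 0.16 and −0.0016. *CBX3* and *HDAC2* were the 2 genes called in that fit, with −0.38 and −0.34 and adjusted p of 0.0232 and 0.0368, and were named after their values were seen. Over all genes that fit called 4.16% higher and 5.97% lower.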

How the data were processed

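Total RNA was sequenced from 3 CTCF-WT and 3 CTCF-dRBR libraries. The authors trimmed the reads with Trim Galore (version 0.6.3), aligned them to GRCh37 with STAR (version 2.7.9a) and quantified the genes with RSEM (version 1.3.1), per the methods and the submitters' processing notes. The deposited expected counts are RSEM estimates without normalization, and the deposited TPM are divided by gene length and scaled to the same total by the authors. The tables are marked as stranded, and how the counting used the strand is not given in the sources used here. The 92 ERCC spike-in sequences had 0 counts.

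Genes that reached 1 CPM in at least 1 library were kept. Library sizes were scaled by TMM in edgeR (version 4.0.16), and the groups were tested, two-sided and with no covariate, by limma-voom under R (limma 3.58.1, R 4.3.3), with Benjamini-Hochberg adjustment over all genes tested and a threshold of 0.05. CPM of single genes are TMM-normalized. Depth was 30034505 to 53166735 counts, and 3 libraries a group limit the precision. Pairs of libraries had median chi-square values of 2.64 to 72.4 over genes, so that no library was a copy of another. GC content, length and coding sequences came from the canonical transcripts of a later Gencode annotation lifted to GRCh37, matched for 311 of 314 genes. KRAB and SCAN matches are ungapped stretches of 40 and 51 residues with at least 30% identity to a consensus, so a KRAB domain outside the canonical transcript is missed. The GC trend was fitted in each library by loess (span 0.5, degree 2) to deviations of log2 CPM (prior count 1) and subtracted before limma-trend. DESeq2 (version 1.42.0) and edgeR used rounded counts. The fits were also run on simulated counts with 200 changed genes, with and without a linear GC trend and with equal spread in all libraries. That setting is simpler than these data, so it does not show how reliable the calls here are. The plots used matplotlib 3.10.9.

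The ZNF genes and the gene lists (KRAB silencing machinery, RNA-linked, chromatin complex, retroelement and imprinting, blood lineage and the cell type markers) were chosen with earlier results of these data known. The genes named were the 8 with the smallest unadjusted p in each direction, the gene with the smallest p and the gene with the highest TPM of each list, the 5 highest in TPM, the 2 nearest the threshold on each side, *TRIM28*, *SETDB1* and the 2 machinery genes with the smallest p in each direction, of which 1 is not reported here. Other members of the lists could be named.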

Additional observations from a re-analysis of the deposited data

How the results depend on the processing

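The number of ZNF genes past an adjusted p of 0.05 was 0 with limma-voom, the edgeR quasi-likelihood test, other normalizations and filters, TPM, removal of the length trend and the replicate block, and 0 to 1 when a library was left out. It was 19 with DESeq2 and 225 with voomWithQualityWeights, which weighted CTCF-dRBR replicate 1 by 0.0969. It was 16 with the GC trend removed, 49 with that and without CTCF-dRBR replicate 1, and 0 to 7 without each other library. Over all genes these numbers were 1619, 9583, 1383, 3544 and 0 to 723 (1 without CTCF-WT replicate 2, 280 without CTCF-dRBR replicate 3), with 22 after removal of the length trend and 0 to 535 with a library left out. For the machinery they were 2, 9, 2, 3 and 0 to 1. DESeq2 without CTCF-dRBR replicate 1 called 29 ZNF genes, 2403 genes in all and 3 of the machinery. It and the fits that removed the GC trend and left out another library than CTCF-dRBR replicate 1 were chosen after seeing the data.

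The median log2 fold change of the ZNF genes was between 0.11 and 0.27 with a library left out, 0.034 with the GC trend removed, also with the replicate block, 0.025 with that and without CTCF-dRBR replicate 1, and 0.032, 0.039, 0.033, 0.052 and 0.041 without CTCF-WT replicates 1, 2 and 3 and CTCF-dRBR replicates 2 and 3. With no filter on low counts it was 0.12 and below the median of all genes, 0.19, where many more genes with few counts enter. Genes without overlap on the higher side were 111 to 176 with a library left out, 72 with the GC trend removed, also with the block, 76 with the length trend removed and 76 to 102 with the GC trend removed and a library left out. On the lower side they were 15 in TPM with either pseudocount, 24 to 54 with a library left out, 40 with the GC trend removed, also with the block, 40 in DESeq2 without CTCF-dRBR replicate 1. After removal of the GC trend they were 49, 41, 63, 61, 48 and 53 without CTCF-WT replicates 1, 2 and 3 and CTCF-dRBR replicates 1, 2 and 3.

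Libraries of the same number did not deviate together (correlations of −0.341, 0.0993 and −0.471). The GC trend of each library was left in these values, so they cannot settle whether the number pairs the libraries. With the replicate block 0 ZNF genes were called, with or without the GC trend, at a median of 0.21 with it kept. Directions turned in some named genes. With the GC trend removed, and equally with the block, *ZNF786* had 0.0088, *ZNF263* 0.04, *ZNF207* −0.13, *ZNF395* 0.10, *ZNF771* 0.21, *ZNF362* 0.31 and *SMARCAD1* −0.0016. Without CTCF-dRBR replicate 1 as well, *ZNF207* had −0.013, *ZNF395* 0.17, *ZNF146* −0.042, *ZNF771* 0.18, *ZNF362* 0.23, *ZNF215* −0.043 and *SMARCAD1* −0.032. *ZNF395* had 0.42 and 0.44 on the log2(TPM + 1) and log2(TPM + 0.1) scales and, in limma-voom with a library left out, −0.29 to 0.067, the latter without CTCF-dRBR replicate 1. *SETDB1* had −0.047 with voomWithQualityWeights and −0.025 with no filter. The cause of these turns was not tested.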

Other observations

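Of the 199 ZNF genes under 10 CPM, 116 were tested. In these 65 were higher and 51 lower in CTCF-dRBR, with a median log2 fold change of 0.13, and 30 were higher and 11 lower without overlap between the groups (25.9% and 9.48%, against 20% and 17.5% of all genes). Their transcripts had a median GC content of 45.8%. With the GC trend removed their median was 0.077, and 2 were called higher and 0 lower by limma-trend.

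*ZNF788* stood in 2 rows whose log2 fold changes had opposite signs, 0.53 (adjusted p = 0.257, limma-voom) and −0.66 (adjusted p = 0.278), with groups that overlapped in both. The row ENSG00000188474.6 had 20.6, 23.1 and 35.2 CPM in CTCF-WT and 54.3, 34.5 and 29.5 CPM in CTCF-dRBR, and the row ENSG00000214189.4 had 20.3, 19.3 and 10.8 CPM against 6.15, 11.0 and 14.6 CPM. Of the second gene's stretches of 100 bases, 91.6% also occurred in a transcript of another gene in the later annotation.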
